A study of Rattus norvegicus with 2 samples.

Results

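The genes described here are the splicing factors and heterogeneous nuclear ribonucleoproteins (hnRNPs) of rat glial cultures. They were taken by symbol: the Srsf, Hnrnp, Snrp, Sf3a, Sf3b, Prpf and U2af families, with Rbfox1, Rbfox2, Mbnl1 to Mbnl3, Ptbp1 to Ptbp3, Celf1, Celf2, Tra2a, Tra2b and Clk1 to Clk4. The choice gave 83 genes of the 17049 in the deposited table. The table has no entry under the symbol Qki. It lists Qk (gene number 499022), which RefSeq gives as an older name of Qki, so that gene stands outside the 83 and is given separately.

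The cells were oligodendrocyte precursor cells (OPCs), the dividing glia that can form myelinating oligodendrocytes, in primary culture from adult wild-type rat brain. They grew in OGM medium at 37 °C with 5% CO2. One RNA-seq library came from cells given amyloid-β (Aβ), which aggregates in Alzheimer's disease, at 1 µM for 2 days. The other came from cells given DMSO, the usual solvent control. With 1 library a group, no difference has a replicate check and no p-value is given. The labels do not say how many animals or cultures stand behind a library.

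Splicing removes introns from pre-mRNA. The spliceosome is built from small nuclear ribonucleoproteins (snRNPs), each an RNA with proteins that in most of them include a ring of Sm proteins. The spliceosome finds the intron ends with the help of U2AF and the SF3a and SF3b complexes. SR proteins mostly promote the use of nearby exons and hnRNPs often oppose them, so their balance sets which exons enter an mRNA. In the oligodendrocyte lineage such proteins are known for the splicing of myelin messages and for carrying Mbp mRNA into processes.

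Across the set, levels were slightly lower in the Aβ library, and no member was 2-fold apart once a pseudocount of 1 was added to TPM. Snrpn, on few reads, was the one member past 2-fold without it (1.57 TPM with Aβ, 0.78 TPM with DMSO). All 83 genes together held 2.05% of the reads with Aβ and 2.17% with DMSO, a ratio of 0.944 (95% counting interval 0.939 to 0.949). The read ratio was below 1 for 60 of the 82 members that reached 1 TPM in either library (73.2%), where 49.5% of all 12980 such genes were below 1. By TPM the ratio was below 1 for 62 members (75.6%) and 47.9% of all genes. Of the 31 members lower beyond counting error, 10 were hnRNPs and 7 were SR or Tra2 proteins. The Sm and snRNP proteins lay near equality in summed reads, and 2 members, Srsf9 and Prpf40b, were higher with Aβ beyond counting error. Here a read ratio is Aβ over DMSO in reads per total reads, and TPM is a level corrected for gene length and library total.

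The libraries had 15704932 (Aβ) and 15663751 (DMSO) estimated reads. Every interval below is an exact Clopper-Pearson 95% interval on reads, it covers counting error only, and it compares 2 libraries and not the conditions. Bulk levels cannot tell fewer cells of a type from less RNA per cell. The OPC label was borne out in part by its markers. Olig1 stood at 1421 TPM with Aβ and 1557 with DMSO and Pdgfra, the PDGF receptor of OPCs, at 23.2 and 24.6, but Sox10 was at 0.84 and 1.22 TPM and Gpr17 at 0.13 in both. Astrocyte markers were abundant, with a sum over 10 genes of 2359 TPM (Aβ) and 2369 TPM (DMSO), against 2667 and 2880 TPM for the 9 OPC markers in the table. Microglial markers summed to 358 and 407 TPM over 14 genes, neuronal markers to 156 and 152 TPM over 12 genes, mature oligodendrocyte markers to 220 and 235 TPM over 11 genes, and endothelial and pericyte markers to 1.30 and 1.56 TPM over 6 genes. The read interval lay below 1 for 4 of the 7 OPC markers that reached 1 TPM (Olig1, Olig2, Pdgfra and Ptprz1) and above 1 for Cspg4. In the other lists it lay below 1 for 4 of 9 astrocyte, 4 of 13 microglial, 2 of 9 neuronal and 3 of 9 mature oligodendrocyte genes that reached 1 TPM, and above 1 for 3, 1, 2 and 0. Of all 12980 genes tested, 12.5% had a read interval below 1 and 12% above 1. With 5000 reads or more, as for Olig1, Olig2 and Ptprz1, the shares of all genes were 28.6% and 20.6%. The marker counts thus depend on depth and do not by themselves show a shift of a cell type. Aqp4, an astrocyte water channel, had a read ratio of 0.849 (0.804 to 0.898), and C1qa, a microglial complement gene, of 0.672 (0.589 to 0.765). Cspg4, the NG2 proteoglycan of OPCs, was at 1.78 (1.54 to 2.05), the neuronal gene Snap25 at 1.50 (1.16 to 1.96) and Myrf, a regulator of myelin genes, at 0.710 (0.573 to 0.879). The part of cell mixture in the values that follow was not tested.

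The sequence just before the start site is shown for 4 members on which the description turns, which are the lowest hnRNP (Hnrnpab), an abundant hnRNP that was also lower (Hnrnpa1) and both members that were higher (Srsf9 and Prpf40b). Each run is the 150 bases before the annotated start, 5′ to 3′ on the gene's strand, from RefSeq on build GRCr8, which is not the build of the deposited files. Capitals mark matches, on either strand, to CCAAT (the CCAAT box), GGGCGG (the GC box), CCGGAAG (a core bound by ETS factors) and TATAAA (the TATA box), which do not contain one another.
Hnrnpab, chr10:36363899-36364048, minus strand: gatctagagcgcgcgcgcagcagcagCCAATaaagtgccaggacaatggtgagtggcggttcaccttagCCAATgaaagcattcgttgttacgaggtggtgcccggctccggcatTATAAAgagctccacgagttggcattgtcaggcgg
Hnrnpa1, chr7:136253968-136254117, plus strand: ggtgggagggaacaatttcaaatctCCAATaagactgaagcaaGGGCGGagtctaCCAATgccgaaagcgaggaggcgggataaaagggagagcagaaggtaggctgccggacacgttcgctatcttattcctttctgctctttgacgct
Srsf9, chr12:46945148-46945297, minus strand: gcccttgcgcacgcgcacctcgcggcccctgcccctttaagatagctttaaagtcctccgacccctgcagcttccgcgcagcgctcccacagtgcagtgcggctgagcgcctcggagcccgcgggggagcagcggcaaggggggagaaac
Prpf40b, chr7:132318518-132318667, plus strand: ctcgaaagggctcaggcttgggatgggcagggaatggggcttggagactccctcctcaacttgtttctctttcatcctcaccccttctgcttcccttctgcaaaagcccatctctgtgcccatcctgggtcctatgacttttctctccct

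The printed runs of the 2 hnRNP genes each hold a pair of CCAAT matches. A TATAAA match is in that of Hnrnpab and a GGGCGG match in that of Hnrnpa1. None of the motifs is in the printed runs of Srsf9 and Prpf40b. Whether motifs go with the ratios was not tested. The observed over expected number of CpG pairs in these runs was 0.955 for Hnrnpab, 0.842 for Hnrnpa1, 0.837 for Srsf9 and 0.094 for Prpf40b. Over 300-base windows (250 before and 50 after the start), found for 75 of the 83 members in 81 windows, CCAAT stood in 53.1% of member windows, against 37.0% of the 14910 windows of genes in the deposited table and 37.5% of all 33469 RefSeq windows. CCGGAAG stood in 24.7%, against 14.4% and 8.75%. GGGCGG stood in 56.8% of member windows, against 55.2% and 33.1% and TATAAA in 9.88% against 8.30% and 14.2%. A match is a description of letters and not a binding site. The median GC content was 59.3% in member windows and in windows of genes in the deposited table. The median CpG ratio was 0.897 in member windows and 0.700 in windows of genes in the deposited table.

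These genes are abundant. In mean TPM, 49 of the 83 stood in the top 10% of the 17049 genes, and 48 were at 100 TPM or more in both libraries. Of the 20 most abundant members, 10 were hnRNPs. Hnrnpa2b1, Hnrnpa1 and Hnrnpa3 were each above 1000 TPM in both. At the low end, Mbnl3 was at 0.43 TPM with Aβ and 0.66 with DMSO, on 37 and 35 reads, and did not reach 1 TPM, and Snrpn reached it in the Aβ library alone.

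**Figure D1:**
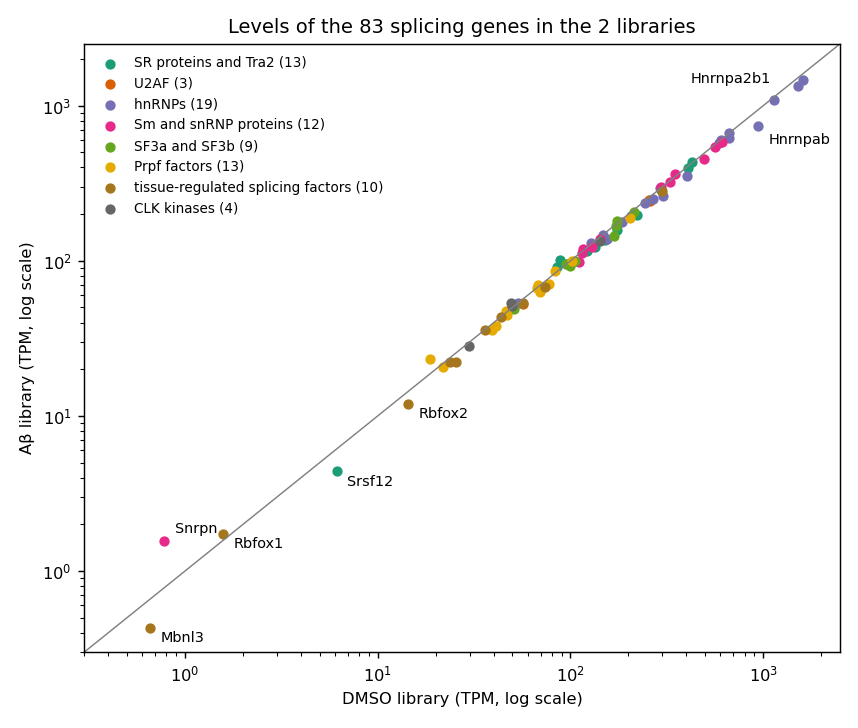
TPM of each of the 83 genes in the DMSO library (x axis) and the Aβ library (y axis), both on log scales, coloured by role, with the number of genes in brackets and the line of equality in grey. Levels run from Mbnl3 at 0.43 (Aβ) and 0.66 TPM (DMSO) to Hnrnpa2b1 at 1474 and 1600 TPM. Most points lie close to the line, while the low genes Snrpn (above it) and Mbnl3 (under it) lie farther off, and Hnrnpab is under it among the abundant genes.

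The read interval lay below 1 for 31 of the 82 members and above 1 for 2, where it did so for 12.5% and 12% of all genes tested. No member was 2-fold higher or lower on log2(TPM + 1), as 0.501% and 0.493% of all genes were. At 1.2-fold by reads, 3 members were lower (Hnrnpab, Rbfox2 and Srsf12) and 2 higher (Prpf40b and Snrpn), where 8.93% and 9.91% of all genes were. For Hnrnpab, Rbfox2 and Prpf40b the interval also excluded 1, which held for 10% of all genes. The median log2 ratio of TPM was −0.06 over the members and 0.01 over all 12980 genes. Most members lay near equality. The read ratio lay between 0.9 and 1.1 for 63 of the 75 members with 1000 reads or more (84.0%), and for 80.1% of all genes with as many reads.

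Deep genes have narrow intervals, so the count was also taken by depth. At 200 reads or more it was 31 below and 2 above of 79 members, against 13.7% and 13.1% of all genes. Among genes with 1000 reads or more over both libraries, 29 of 75 members had an interval below 1 and 2 above, where 17.0% and 14.8% of all 6500 such genes did. With 5000 reads or more, 24 of 40 members were below and 0 above, where 28.6% and 20.6% of all 1411 genes were, and 33 of the 40 had a ratio below 1, against 54.9% of all such genes. The lower side was thus the fuller one for members at each depth, while over all genes the sides were closer to even. The counts by role that follow stand against these shares of all genes, and they too depend on depth.

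**Figure D2:**
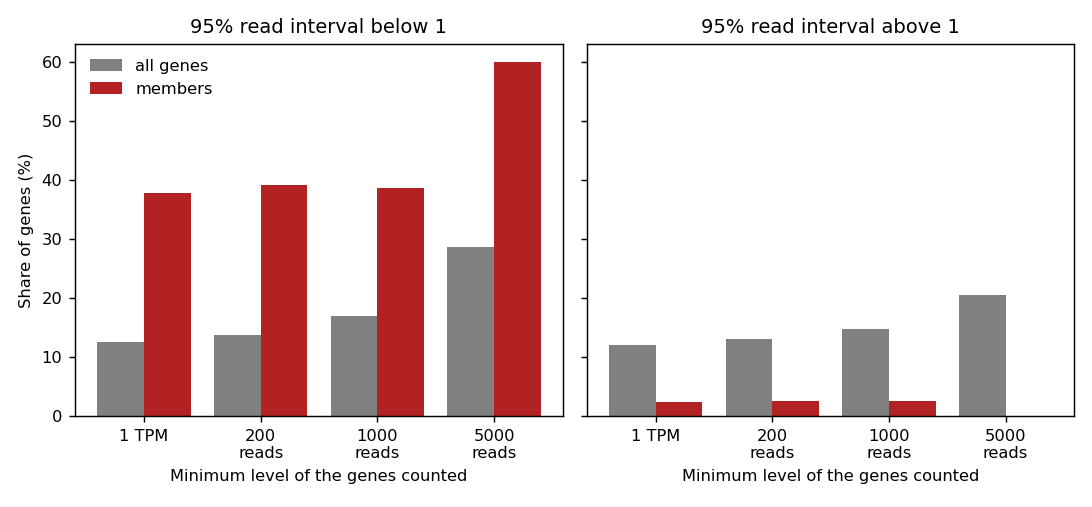
Share of genes (y axis, percent) whose 95% read interval lay below 1 (left panel) or above 1 (right panel), for all genes (grey) and members (red), by the minimum level of the genes counted (x axis). Among genes with 5000 reads or more, 60.0% of members and 28.6% of all genes were below 1, and 0 members and 20.6% of all genes were above.

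**Figure D3:**
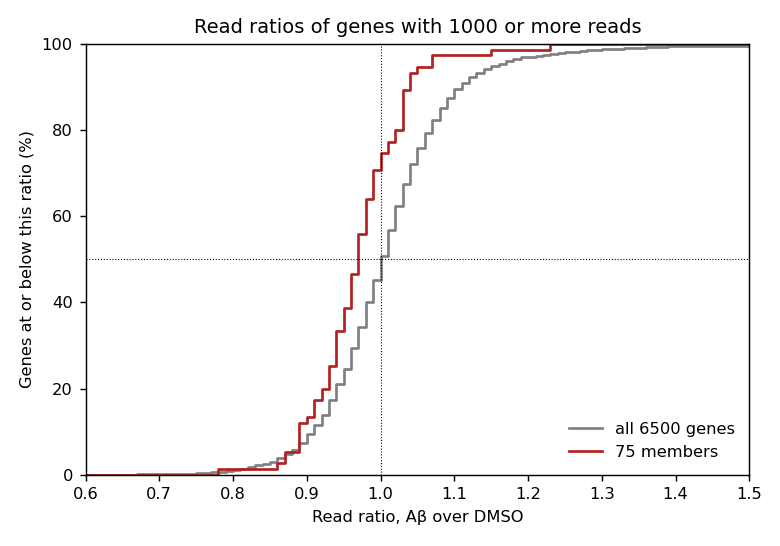
Percent of genes (y axis) at or below each read ratio of Aβ over DMSO (x axis) among genes with 1000 reads or more, for 75 members (red) and all 6500 genes (grey). The red curve stands to the left through the middle of the range, with 74.7% of members and 50.8% of all genes at or below a ratio of 1.

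SR proteins, with the related Tra2 proteins, bind exonic enhancers and recruit the spliceosome. Of 13 members, 7 had a read interval below 1 and 1 above, with read ratios from 0.731 to 1.15 and a median log2 TPM ratio of −0.08. Srsf3, the smallest of the SR proteins and an adaptor for mRNA export, was at 197 TPM with Aβ and 221 TPM with DMSO (read ratio 0.883, 0.851 to 0.917). Tra2a was at 135 and 151 TPM (0.888, 0.847 to 0.930), and its paralog Tra2b at 246 and 257 TPM (0.954, 0.915 to 0.994). Both Tra2 genes were thus lower with Aβ. Srsf1, the founding member of the family, had 9753 and 10420 reads and a ratio of 0.934 (0.908 to 0.960). Srsf6 (0.908), Srsf10 (0.918) and Srsf11 (0.940) completed the members with an interval below 1.

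The other SR genes were not lower beyond counting error. Srsf9 (gene number 288701), which is close in sequence to Srsf1, was at 101 TPM with Aβ and 88.7 TPM with DMSO, on 838 and 727 reads, a ratio of 1.15 (1.04 to 1.27). Srsf2 (SC35), the most abundant of the group and a classical marker of nuclear speckles, was at 435 and 428 TPM (1.02, 0.993 to 1.05). Srsf4 (1.06, 0.994 to 1.14), Srsf5 (0.980, 0.936 to 1.03) and Srsf7 (1.00, 0.958 to 1.05) had intervals that included 1. Srsf12 had only 22 and 30 reads (0.731, 0.402 to 1.31). Many SR genes carry exons that send the message to decay, and gene totals do not separate such forms.

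The CLK kinases phosphorylate SR proteins. Clk1 was at 134 and 142 TPM with a ratio of 0.940 (0.884 to 1.00), just under equality. Clk2 (1.02), Clk3 (1.07, 0.968 to 1.17) and Clk4 (1.02, 0.914 to 1.13) had intervals that included 1, and by TPM Clk4 was at 28.4 with Aβ against 29.8 with DMSO. The median log2 TPM ratio of the kinases was −0.01, and summed over all 4 the reads gave a ratio of 0.991 (0.951 to 1.03).

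**Figure D4:**
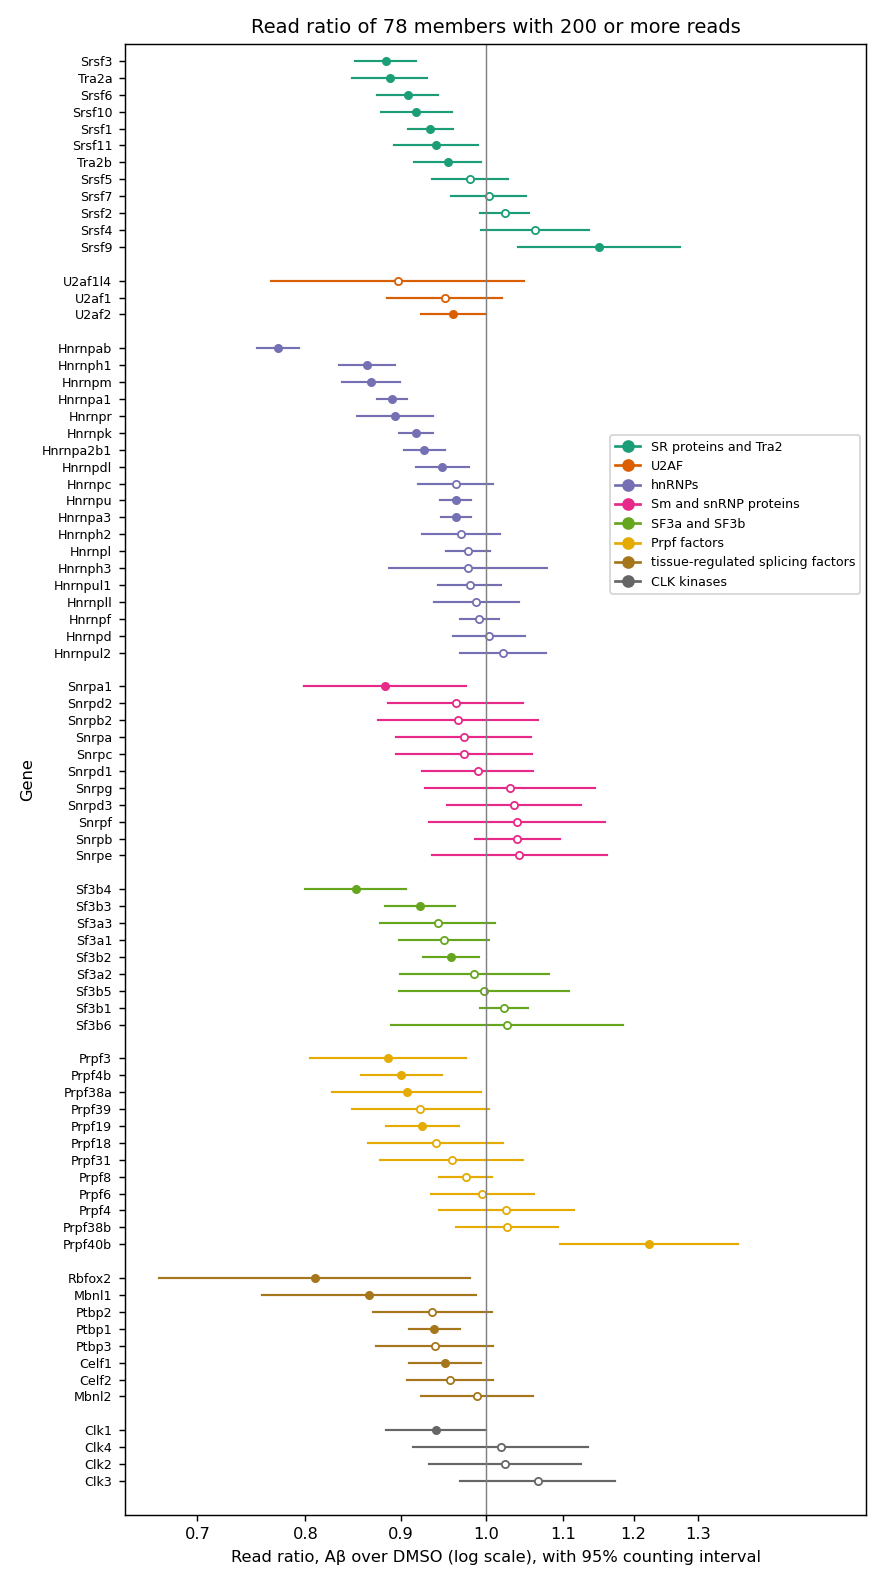
Read ratio of Aβ over DMSO (x axis, log scale) with its 95% counting interval for 78 of the 79 members with 200 or more reads over both libraries (y axis), grouped and coloured by role; filled points have an interval that excludes 1. Filled points lie left of 1 except those of Srsf9 (1.15) and Prpf40b (1.22), and Hnrnpab (0.773) lies farthest left.

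The hnRNPs coat nascent RNA, and many of them silence exons. They had the largest part in the lower total, and also held 52.9% of all member reads with Aβ and 53.8% with DMSO. Of 19 members, 17 had a read ratio below 1, the interval lay below 1 for 10 and above 1 for 0, and the median log2 TPM ratio was −0.06. Their summed reads were 170601 with Aβ and 183078 with DMSO (0.929, 0.923 to 0.936). Without Hnrnpab the sum gave 0.941 (0.935 to 0.948), with 9 of 18 intervals below 1, and the 63 other members without any hnRNP still had 21 intervals below 1 and 2 above. The median read ratio was 0.963 for the hnRNPs and 0.960 for those other members, so the typical hnRNP was no lower.

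Hnrnpab (gene number 83498), a nuclear and cytoplasmic protein also called CBF-A that, like hnRNP A2, is known to bind the transport signal of Mbp mRNA, had the lowest ratio among members with 200 or more reads. It stood at 742 TPM with Aβ and 936 TPM with DMSO, with 10157 and 13101 estimated reads and a ratio of 0.773 (0.753 to 0.794). Its counts were not whole, that is, some reads were divided among gene models. Phykpl, which overlaps it in RefSeq's gene table and also had divided reads, held 142 and 106 reads, and the sum of both genes, an alternative added with the values known, gave 0.778 (0.758 to 0.798).

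The A-type hnRNPs are the most abundant members. Hnrnpa1 (gene number 29578), a general antagonist of SR proteins, was at 1347 TPM with Aβ and 1512 TPM with DMSO, a ratio of 0.890 (0.874 to 0.906). Hnrnpa2b1, whose A2 form binds the transport signal of Mbp mRNA in oligodendrocytes, was at 1474 and 1600 TPM (0.926, 0.903 to 0.950). Hnrnpa3 was at 1093 and 1139 TPM (0.963, 0.946 to 0.981). All 3 were thus lower with Aβ, by differing amounts.

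The H and F proteins bind runs of G. Hnrnph1 was at 351 and 404 TPM (0.864, 0.834 to 0.894), while its close paralog Hnrnph2 was at 179 and 186 TPM (0.969, 0.924 to 1.02). Hnrnpf was at 665 and 666 TPM (0.992, 0.968 to 1.02), next to equality. Hnrnph3, with divided reads, was at 53.4 and 53.3 TPM (0.978, 0.887 to 1.08). So within this subfamily the interval excluded 1 for Hnrnph1 only.

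Among the other hnRNPs, Hnrnpm was at 0.868 (0.837 to 0.899), Hnrnpr at 0.894 (0.853 to 0.936) and Hnrnpdl at 0.947 (0.917 to 0.979). Hnrnpk, which binds C-rich RNA and single-stranded DNA, was at 616 and 668 TPM (0.917, 0.898 to 0.937). Hnrnpu, a scaffold protein of the nucleus, was at 573 and 592 TPM (0.963, 0.944 to 0.982) and had divided reads, as had Hnrnpc, a binder of uridine tracts, at 236 and 244 TPM (0.963, 0.919 to 1.01). The mRNA decay factor Hnrnpd (AUF1) stood at 294 and 293 TPM, equal within counting error. The highest ratio of the family was that of Hnrnpul2 (1.02, 0.969 to 1.08), and Hnrnpl, Hnrnpll and Hnrnpul1 lay between 0.978 and 0.988 with intervals that included 1. Hnrnpl, a reader of CA repeats, was the most abundant of those, at 597 and 607 TPM.

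U2AF recognises the 3′ end of the intron. U2af2, the large subunit that binds the polypyrimidine tract, was at 248 TPM with Aβ and 257 TPM with DMSO (0.960, 0.923 to 0.999). U2af1, the small subunit that reads the terminal AG, was at 242 and 258 TPM (0.950, 0.885 to 1.02). U2af1l4 had 311 and 346 reads (0.896, 0.767 to 1.05). All 3 ratios were below 1, and the interval excluded 1 for U2af2 only, narrowly, with an upper end of 0.99945.

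SF3a and SF3b are parts of the U2 snRNP that grip the branch site. The interval lay below 1 for 3 of 9 members and above 1 for 0. Sf3b4 was lowest, at 144 and 169 TPM on 1841 and 2157 reads (0.851, 0.800 to 0.906), followed by Sf3b3 (0.921, 0.882 to 0.962) and Sf3b2, the most abundant of them, at 206 and 214 TPM (0.958, 0.925 to 0.992). Sf3b1, the largest subunit and a frequent target of mutation in blood cancers, was at 181 and 175 TPM (1.02, 0.993 to 1.05). The small subunit Sf3b6 had 392 and 381 reads (1.03, 0.889 to 1.18). Sf3a1, Sf3a2, Sf3a3 and Sf3b5 had ratios from 0.942 to 0.997, with intervals that included 1. The intervals of Sf3b4 and Sf3b1 did not overlap, while 6 of the 9 intervals included 1. This pair was picked with the values seen, and how often other gene pairs fail to overlap was not computed.

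The Sm proteins and the proteins specific to U1 and U2 snRNPs showed no common direction by reads. Of 12 members, 6 were above 1 and 6 below, and their summed reads gave 0.999 (0.975 to 1.02). By TPM they were lower, with sums of 3159 with Aβ and 3255 with DMSO and a median log2 ratio of −0.04. Snrpb, which encodes SmB, was at 361 and 349 TPM (1.04, 0.987 to 1.10). Snrpe, a small Sm protein, was at 545 TPM with Aβ and 563 TPM with DMSO. Its reads were 697 and 667 (1.04, 0.936 to 1.16), so TPM and reads pointed opposite ways while the read interval included 1. The same held for Snrpg, with divided reads, at 584 and 611 TPM and a read ratio of 1.03 (0.927 to 1.14). Snrpa1, a protein of the U2 snRNP, was the only one of the 12 whose interval excluded 1, at 97.6 and 111 TPM (0.883, 0.799 to 0.975). The U1 proteins Snrpa and Snrpc had ratios of 0.973 (0.895 to 1.06) and 0.973 (0.895 to 1.06). The Sm genes Snrpd1, Snrpd2, Snrpd3 and Snrpf ranged from 0.963 for Snrpd2 to 1.04 for Snrpf, each within counting error.

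Snrpn, the brain-enriched SmN gene, is transcribed together with Snurf from one imprinted locus. It was listed at 18.7 and 9.27 estimated reads, or 1.57 and 0.78 TPM, and its ratio of 2.11 (0.908 to 5.28) rests on these few divided reads. Snurf (gene number 113938) was listed at 866 and 739 reads, or 80.5 and 68.9 TPM (1.17, 1.06 to 1.29). Added together, the 2 genes come to whole numbers within 0.015 reads, 885 with Aβ and 748 with DMSO, and the summed ratio, likewise added with the values known, was 1.18 (1.07 to 1.30). The level listed for Snrpn alone therefore depends on how reads of this locus were divided.

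Prpf proteins belong to the tri-snRNP, to the Prp19 complex and to the U1 snRNP. Of 13, the interval lay below 1 for 4 and above 1 for 1. Prpf19, the ubiquitin ligase of the complex named after it and the most abundant of the group, was at 190 and 205 TPM (0.924, 0.883 to 0.967). Prpf3, a U4/U6 protein, was at 35.7 and 39.3 TPM (0.886, 0.804 to 0.975), the kinase Prpf4b at 70.5 and 77.6 TPM (0.901, 0.857 to 0.947) and Prpf38a at 62.9 and 69.3 TPM (0.906, 0.827 to 0.994). Prpf8, the scaffold of the catalytic centre, was at 100.2 and 101.6 TPM (0.975, 0.944 to 1.01), close to equal.

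Prpf40b (gene number 363000), a relative of a yeast U1 protein, had the highest ratio among members with 200 or more reads. It stood at 23.3 TPM with Aβ and 18.7 TPM with DMSO, on 732 and 597 reads (1.22, 1.10 to 1.36). Prpf4, Prpf6, Prpf18, Prpf31, Prpf38b and Prpf39 had ratios from 0.922 to 1.03, with intervals that included 1.

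Tissue-regulated factors switch exons between cell types. Of the 9 that reached 1 TPM, 8 had a ratio below 1, the interval lay below 1 for 4, and the median log2 TPM ratio was −0.09. Rbfox2, which binds GCAUG, was at 11.96 and 14.33 TPM on 198 and 244 reads (0.809, 0.668 to 0.980). Mbnl1, the protein sequestered by repeat RNA in myotonic dystrophy, was at 22.2 and 25.6 TPM (0.866, 0.759 to 0.987), while Mbnl2 was at 36.0 and 36.1 TPM (0.989, 0.922 to 1.06). Rbfox1, mainly neuronal, had 71 and 62 reads (1.14, 0.801 to 1.63).

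Ptbp1 represses neuronal exons, among them one in Ptbp2. Ptbp1 was at 281 TPM with Aβ and 298 TPM with DMSO (0.938, 0.909 to 0.969), and Ptbp2 at 43.3 and 43.8 TPM (0.936, 0.869 to 1.01). Ptbp1 thus held 86.6% of the TPM of this pair with Aβ and 87.2% with DMSO. Celf1, which binds GU-rich RNA and often opposes Mbnl proteins, was at 68.2 and 74.0 TPM (0.951, 0.909 to 0.994), and Celf2 at 53.2 and 56.6 TPM (0.957, 0.907 to 1.01). Ptbp3 was at 0.938 (0.873 to 1.01).

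Qk encodes an RNA-binding protein whose deficit in oligodendrocytes gives the quaking mouse its poor myelin. It was at 114 TPM with Aβ and 120 TPM with DMSO, with divided reads (0.948, 0.873 to 1.03). Of 5 messages known to be bound by its protein, Hnrnpa1 was lower as above, and Egr2, also an immediate early gene, was at 17.4 and 11.8 TPM (1.47, 1.28 to 1.70). Mbp, the myelin basic protein message, had a ratio of 1.07 (0.901 to 1.27), the cell cycle inhibitor Cdkn1b of 0.989 (0.919 to 1.06) and Map1b of 1.10 (0.994 to 1.21). No common direction is seen in these 5.

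Paralogs were compared in 14 pairs by the ratio of their read ratios, with an exact conditional 95% interval, and the interval excluded 1 for 6 of them. The share among other gene pairs was not computed, so the count cannot be called particular to paralogs. Of single genes with 5000 reads or more, 28.6% had an interval below 1 and 20.6% above. The Srsf1 to Srsf9 balance gave 0.812 (0.731 to 0.901), with Srsf1 at 65.7% of the pair's TPM with Aβ and 69.9% with DMSO. For Hnrnph1 against Hnrnph2 the value was 0.891 (0.839 to 0.946), and for Prpf38a against Prpf38b 0.883 (0.790 to 0.988). Tra2a against Tra2b gave 0.931 (0.874 to 0.991), Hnrnpa1 against Hnrnpa2b1 0.961 (0.931 to 0.991) and Hnrnpd against Hnrnpdl 1.06 (1.00 to 1.12). For Ptbp1 against Ptbp2 (1.00, 0.925 to 1.09) and Celf1 against Celf2 (0.994, 0.927 to 1.07) the interval spanned 1, which does not show that the balance was equal.

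Genes of the splicing pathway outside the symbol rule were read from lists written for this purpose. The counts below stand against 12.5% of all genes below 1 and 12% above, or 17.0% and 14.8% of those with 1000 reads or more. SR-rich coactivators had 7 of 15 intervals below 1 and 1 above (median log2 TPM ratio −0.06), with Scaf8 at 0.876 (0.812 to 0.944). Further splicing regulators such as the FET proteins and Sfpq had 11 of 31 below and 4 above (−0.03), where Taf15, with divided reads, had the ratio farthest from 1 at 1.45 (1.18 to 1.77). The Prp19 complex and catalytic step factors had 7 of 24 below and 0 above (−0.06), with Ppil1, a cyclophilin, at 0.855 (0.776 to 0.942). Other core snRNP proteins had 6 of 21 below and 3 above (−0.05), with the tri-snRNP gene Snrnp27 at 1.16 (1.03 to 1.31). The exon junction complex and nonsense-mediated decay had 4 of 15 below and 0 above (−0.08).

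The remaining lists held fewer genes with an interval below 1. No LSm gene of 10 had an interval that excluded 1 (median log2 TPM ratio −0.08, summed read ratio 1.00 with an interval of 0.962 to 1.04), and Lsm1 was at 0.837 (0.684 to 1.02). The deepest of them, Lsm4, had 1175 and 1138 reads, so small shifts in this list would not be called. For snRNP assembly 1 of 18 was below and 1 above (−0.03), the latter being Wdr77, a partner of the methylase that prepares Sm proteins, at 1.23 (1.14 to 1.33) on divided reads. SR protein kinases had 1 of 4 below and 0 above, which was the member Prpf4b. Neuron-enriched splicing regulators had 2 of 11 below and 3 above (0.09), with Nova2 farthest from 1 among those with 200 reads or more, at 11.2 and 16.1 TPM (0.691, 0.567 to 0.842). On fewer reads, Rbfox3 was at 1.85 (1.06 to 3.31) and Celf4 at 1.72 (1.16 to 2.56). The neuron-enriched list also holds 2 members, Ptbp2 and Rbfox1, whose intervals included 1.

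**Figure D5:**
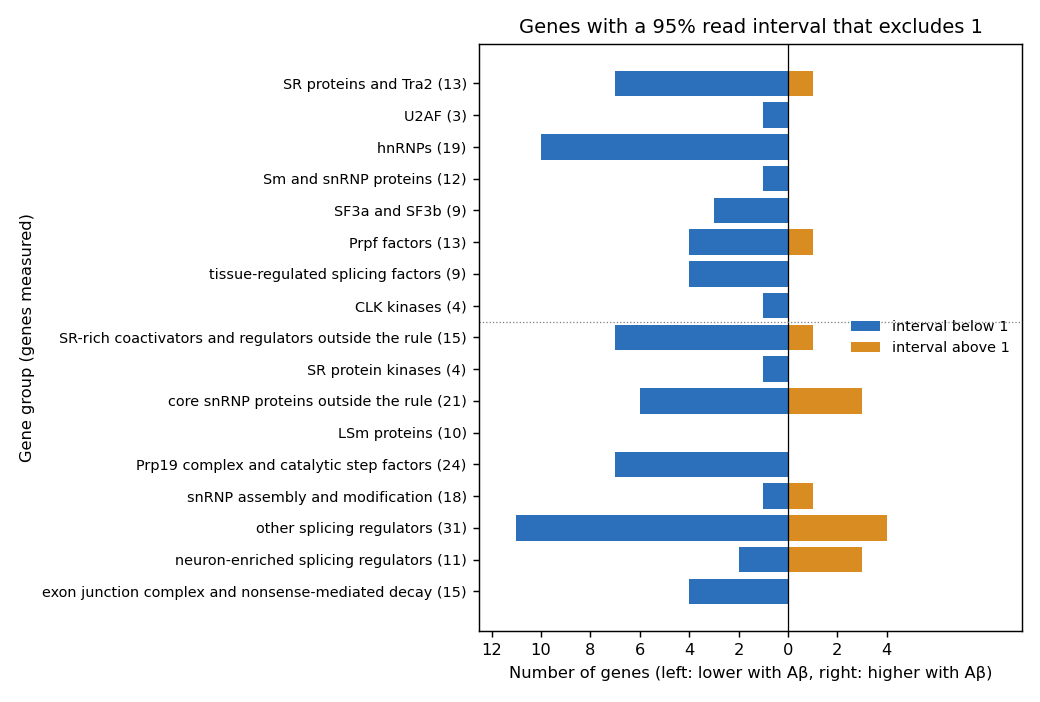
Number of genes (x axis) with a 95% read interval below 1 (blue, to the left) or above 1 (orange, to the right) in each group (y axis), with the number of genes at 1 TPM or more in brackets. Groups above the dotted line are members by role. Those under it are pathway lists outside the rule, except that the SR protein kinases include 1 member and the neuron-enriched regulators 2. The hnRNPs have 10 of 19 below and 0 above, and the Sm and snRNP proteins 1 of 12 below and 0 above. These counts also depend on depth, with summed reads in the Aβ library of 170601 for the hnRNPs and 12737 for the Sm and snRNP proteins.

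Cell cycle genes, many of which are high in dividing cells, were also mostly lower. Of 32 measured, the interval lay below 1 for 18 and above 1 for 2, with a median log2 TPM ratio of −0.09, and the survivin gene Birc5 was at 0.789 (0.696 to 0.893). The list summed to 4276 TPM with Aβ and 4448 TPM with DMSO. Its part in the lower levels of hnRNPs and SR proteins was not tested.

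The authors' deposited table of gene ontology terms for genes higher with Aβ covers 391 genes and 282 terms. None of the 83 members is named in a term of the authors' deposited table, and no term there names splicing or ribonucleoproteins. Its terms name 246 of its 391 genes, so a member among the rest would not be seen. Those 246 are a small share of the 17049 genes with levels, and only 2 members were 1.2-fold higher by reads. The absence of members from the terms is thus not a result about them.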

How the data were processed

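One mRNA library per group was sequenced from 1 µg of total RNA, per the labels' protocols. The submitters' processing notes name Bowtie2 and the build Rnor_6.0. Neither a counting tool nor an annotation is given there or in the labels. The deposited table holds estimated counts, TPM and FPKM for 17049 genes. Its columns named as normalized counts hold the read count rounded up, were treated as a score in the deposited table, and were not used, nor was FPKM. Per the file headers, the deposited ontology table holds fold enrichment as a ratio, a fraction of each term, p-value and q-value, a z score and a count of genes per term.

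Estimated counts were rounded for intervals. Log2 ratios used TPM with a pseudocount of 1 over genes that reached 1 TPM in at least one library. With 1 library per group no model was fitted. Intervals came from scipy 1.17.1 (Python 3.11.15). Their code was checked on simulated independent counts, which cannot show how well the intervals fit these reads. TMM factors came from edgeR 4.0.16. A count of 0 allows 3 reads, or 0.191 CPM with Aβ and 0.192 CPM with DMSO. Reads are not independent molecules, so intervals cover counting error only. All 83 gene numbers were found with the same symbol in RefSeq's GRCr8 gene table.

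Named genes were, per role, the most abundant member and the highest and lowest ratio at 200 or more reads; members 1.2-fold apart with an interval excluding 1; members with divided reads; a list of well-known members; and in each pathway list the gene farthest from a ratio of 1 at 200 or more reads; some genes are not reported here. Further members and markers were named after their values were seen. The members and lists were chosen with earlier results of these data known.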

Additional observations from a re-analysis of the deposited data

How the results depend on the processing

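The median log2 TPM ratio of the members stayed between −0.06 and −0.05 with a pseudocount of 0.1, with CPM, with a filter of 5 TPM, with no filter and with whole-read members alone, and the number of members 2-fold apart, counted with the pseudocount, was 0 with each of these but the 5 TPM filter, for which it was not computed. With a 99% interval, 20 members lay below 1 in place of 31, and 2 above. Median-of-ratios size factors gave 29 below and TMM 31, with 2 above each time, and the 75 members with whole reads gave 29 below and 2 above. Clk1 and U2af2 had the upper ends nearest 1 among the 31 (0.9998 and 0.99945), so these calls depend on the scaling. For the 40 named members, neither scaling nor the TPM ratio took a value outside its counting interval. Size factors moved all log2 ratios by 0.004 or less. No paired analysis was possible because each group has 1 library, and for the same reason no library could be left out. Depth limits Snrpn, Srsf12, Mbnl3 and Rbfox1, each with under 200 reads.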

Other observations

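For 6 of the 82 members (7.32%) the read ratio and the TPM ratio lay on opposite sides of 1, as for 5.57% of all genes kept. These were Snrpe (read ratio 1.04, TPM ratio 0.968), Snrpg (1.03 and 0.955), Clk4 (1.02 and 0.951), Srsf7 (1.00 and 0.977), Hnrnph3 (0.978 and 1.00) and Prpf6 (0.995 and 1.00). Each read interval included 1. In CPM, reads scaled to the library total, the members summed to 20523 with Aβ and 21742 with DMSO. The difference, Aβ minus DMSO, was −190 CPM for Hnrnpab, −169 CPM for Hnrnpa1 and −94.7 CPM for Hnrnpk, and hnRNPs were 8 of the 10 members with the largest such differences. Such differences grow with abundance, and hnRNPs were also 10 of the 20 most abundant members.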
